A study of Mus musculus with 2 samples.

Results

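The dense clusters of distal open sites are 85 short stretches of the mouse genome in which 5 or more open sites far from protein-coding starts lie side by side. They were chosen by their peak calls and position. Peaks of replicate 1 on chromosomes 1 to 19 were taken from the larger of the deposited lists if they overlapped a replicate 2 peak and had a midpoint more than 2 kb from every protein-coding transcript start. Of 78761 replicate 1 peaks shared with replicate 2, 54862 were distal in this sense. Peaks with a gap of 3 kb or less between them were stitched into 46225 regions, of which 85, or 0.184%, held 5 or more peaks. These 85 clusters contained 471 peaks, 0.859% of the shared distal peaks. They were ranked by the summed signal of their replicate 1 peaks, and each was named after the protein-coding genes it overlapped or, if there were none, the nearest one. The number of peaks, their spacing and signal and the overlap between the libraries are therefore values that selected or ranked the clusters, and they are given as a description without a test.

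The data are DNase-seq, in which the enzyme DNase I cuts DNA in open chromatin, and a stretch rich in cuts is reported as a peak. Both libraries came from tissue labelled layer of hippocampus of female B6CASTF1/J mice, an F1 cross, aged 8 to 10 months, with 2 biosamples pooled per library. The labels number them as biological replicates 1 and 2 of a single group and give both the same donor entry. Nothing in the labels says that the pools came from separate animals, so the spread between the libraries may be technical.

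In background terms, distal open sites are often enhancers, elements that raise the transcription of a gene from a distance when transcription factors bind them. Several enhancers can crowd around one gene that marks a cell type, and such crowded groups have been called stretch enhancers or super-enhancers. Open sites also arise at starts of noncoding RNAs and over the genes of transfer RNAs (tRNAs), which RNA polymerase III transcribes from a promoter that lies inside the gene. In such a gene the factor TFIIIC binds the internal A and B boxes and TFIIIB then sits just upstream of the start.

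The larger lists held 96275 peaks in replicate 1 and 126792 in replicate 2 on these chromosomes. The deposited signal of every peak was a whole multiple of 1 step per library, and the median cluster peak measured 147 and 133 steps in the respective libraries. The median shared distal peak measured 100 and 94 steps. No count of reads was given with these values, so counting error per peak is not stated. A gene was called open if each library had a peak within 500 bp of any of its transcript starts. The start could differ between the libraries. By that measure 23 of 23 glutamatergic and pan-neuronal genes, 13 of 15 dentate granule genes, 16 of 22 CA pyramidal genes and 19 of 21 astrocyte genes were open, against 1 of 16 liver and 2 of 16 skeletal muscle genes and 60.4% of all protein-coding genes. The counts were 9 of 22 for interneuron, 4 of 19 for microglia and 4 of 20 for endothelial and mural genes. In bulk tissue, fewer cells of a type and less accessible DNA per cell cannot be told apart.

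The clusters were of several kinds by annotation, a division made after their positions had been seen. The highest peak of at most 300 bp in each of the 8 clusters of highest summed signal is shown first, because these sequences show that the clusters hold different kinds of element. Positions are those of the mm10 assembly and sequences are the forward strand of RefSeq GRCm38.p6, the assembly that mm10 names. In the first group the peaks contain a tRNA gene, and capitals mark the RefSeq tRNA gene. The genes n-THgtg3 and n-TRtcg1 lie on the reverse strand and n-TWcca7 on the forward strand.
Cluster 4 with n-THgtg3, chr2:122377361-122377620: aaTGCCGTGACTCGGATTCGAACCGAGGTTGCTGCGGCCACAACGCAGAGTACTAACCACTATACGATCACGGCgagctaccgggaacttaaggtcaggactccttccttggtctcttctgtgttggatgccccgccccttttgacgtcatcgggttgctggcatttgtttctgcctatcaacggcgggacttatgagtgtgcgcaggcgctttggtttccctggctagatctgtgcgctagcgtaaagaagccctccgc
Cluster 6 with n-TWcca7, chr11:69041681-69041920: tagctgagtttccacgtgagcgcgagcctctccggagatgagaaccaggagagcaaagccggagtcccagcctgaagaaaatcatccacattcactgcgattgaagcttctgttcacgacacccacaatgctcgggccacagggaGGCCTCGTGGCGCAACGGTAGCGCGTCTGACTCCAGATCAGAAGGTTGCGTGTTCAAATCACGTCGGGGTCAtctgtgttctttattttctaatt
Cluster 8 with n-TRtcg1, chr13:23526441-23526660: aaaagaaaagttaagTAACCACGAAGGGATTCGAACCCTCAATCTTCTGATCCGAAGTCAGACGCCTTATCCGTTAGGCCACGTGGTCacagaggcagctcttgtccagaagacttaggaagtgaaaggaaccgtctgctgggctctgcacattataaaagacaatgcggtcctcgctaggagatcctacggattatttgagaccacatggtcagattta

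In the remaining 5 peaks there was no tRNA gene, and capitals mark bases that the authors listed as footprints, short stretches with few cuts inside an open site, in both libraries. The gene given is that of the cluster, and the peak shown need not lie in it.
Cluster 1 at Sfi1, chr11:3127101-3127320: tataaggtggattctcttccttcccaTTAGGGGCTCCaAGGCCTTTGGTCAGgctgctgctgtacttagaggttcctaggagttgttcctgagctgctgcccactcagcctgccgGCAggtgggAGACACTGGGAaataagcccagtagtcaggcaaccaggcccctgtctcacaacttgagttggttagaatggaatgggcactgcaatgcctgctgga
Cluster 2 between Nr1d1 and Msl1, chr11:98783381-98783640: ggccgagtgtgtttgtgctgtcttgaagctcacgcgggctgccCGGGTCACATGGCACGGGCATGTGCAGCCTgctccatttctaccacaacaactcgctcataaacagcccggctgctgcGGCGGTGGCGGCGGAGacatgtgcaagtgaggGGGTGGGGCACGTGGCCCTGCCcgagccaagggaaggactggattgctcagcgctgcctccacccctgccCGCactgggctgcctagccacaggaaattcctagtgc
Cluster 3 at Frmd8os, chr19:5846601-5846880: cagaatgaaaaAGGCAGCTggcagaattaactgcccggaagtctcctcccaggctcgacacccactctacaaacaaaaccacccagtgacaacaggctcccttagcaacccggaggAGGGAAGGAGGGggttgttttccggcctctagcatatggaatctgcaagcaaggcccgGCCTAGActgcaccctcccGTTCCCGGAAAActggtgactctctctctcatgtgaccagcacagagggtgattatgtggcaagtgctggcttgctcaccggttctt
Cluster 5 beside Irf2bpl, chr12:86894461-86894740: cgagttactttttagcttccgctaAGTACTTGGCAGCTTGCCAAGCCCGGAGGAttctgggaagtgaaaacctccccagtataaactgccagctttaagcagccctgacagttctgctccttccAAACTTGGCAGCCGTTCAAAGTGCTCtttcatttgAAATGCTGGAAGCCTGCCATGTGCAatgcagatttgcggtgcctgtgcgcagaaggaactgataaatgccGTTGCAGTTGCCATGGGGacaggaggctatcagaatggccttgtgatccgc
Cluster 7 at Sncb, chr13:54752741-54753000: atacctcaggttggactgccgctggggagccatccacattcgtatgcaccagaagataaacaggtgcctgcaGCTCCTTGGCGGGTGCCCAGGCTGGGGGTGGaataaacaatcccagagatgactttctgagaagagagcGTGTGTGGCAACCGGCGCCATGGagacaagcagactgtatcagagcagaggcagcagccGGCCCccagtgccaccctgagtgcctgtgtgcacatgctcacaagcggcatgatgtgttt

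Genes of tRNAs marked 10 of the 85 clusters. By summed signal, the value that ranks the clusters, 7 of these were among the first 20, and the others ranked 22, 37 and 38. The 10 clusters held 60 peaks, of which 45 overlapped a tRNA gene by at least 1 bp, and their spans contained 50 tRNA genes. Over all cluster peaks the share that overlapped a tRNA gene was 9.55% (45 of 471, 95% Wilson interval 7.22% to 12.55%), against 0.193% of the other shared distal peaks. Such intervals cover counting error only, and neighbouring peaks are not independent. Of 386 RefSeq tRNA genes on these chromosomes, 194 overlapped a peak in both libraries, 152 lay in a shared distal peak and 45 in a cluster peak. The rule bars protein-coding starts only, so it removes no site at a tRNA gene unless a protein-coding start is near.

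No tRNA cluster overlapped a protein-coding gene, and the nearest one was between 387 and 21822 bp away. Cluster 4, 6318 bp from Shf, which encodes an SH2-domain adaptor, carried 3 tRNA-His genes in its span and summed to 13.8 in replicate 1 and 15.2 in replicate 2. Its peak over n-THgtg3 measured 6.18 in replicate 1 and 5.91 in replicate 2, and its peak over n-THgtg4 measured 4.48 and 5.08. The third tRNA peak of that cluster, at n-THgtg5, was lower, at 1.28 and 1.69. It reached only the edge of the gene, ending at base 122377980, while the gene spans bases 122377968 to 122378039.

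Cluster 6 lay 387 bp from Ctc1, a gene of the CST complex that protects telomeres, and summed to 13.3 in replicate 1 and 19.9 in replicate 2. All 6 of its peaks overlapped a tRNA gene: in order along the chromosome these were n-TIaat5, n-TSaga4, n-TTagt8, n-TPcgg3, n-TDgtc9 and n-TWcca7, for 6 different amino acids. Its highest peaks were those over n-TWcca7, with 3.15 and 4.76, and n-TDgtc9, with 2.98 and 5.26. Cluster 12 lay 20360 bp farther along, beside Borcs6, whose product helps to position lysosomes, and summed to 10.7 and 13.3. It carried n-TIaat4, n-TTagt7, n-TSgct3 and n-TWcca6, genes for 4 of the amino acids served in cluster 6, on the other strand, and 2 further peaks without a tRNA gene.

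Cluster 8 lay 4389 bp from the histone gene Hist1h4h and had 8 peaks, with sums of 11.8 in replicate 1 and 18.2 in replicate 2. Its 7 tRNA peaks were over n-TGgcc6, n-TMcat6, n-TStga1, n-TQttg4, n-TQttg5, n-TSgct4 and n-TRtcg1. The peak over n-TRtcg1 was the highest, at 2.62 and 3.83, and that over n-TGgcc6 the lowest of the 7, at 0.751 and 1.47. Its remaining peak, which held no tRNA gene, measured 1.01 and 1.07.

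The other tRNA clusters among the first 20 were smaller in replicate 1. Cluster 13, near Hfe2, which encodes the iron regulator hemojuvelin, summed to 10.5 and 16.3. Cluster 15, near the ubiquitin ligase gene Trim7, summed to 9.74 and 15.3, and cluster 20, near the RNA helicase gene Dhx37, to 8.71 and 13.4. Clusters 22, 37 and 38, near Zfp213, Trim27 and Fcgr4, summed to between 5.79 and 8.45 in replicate 1 and between 8.05 and 12.4 in replicate 2. Together the 45 tRNA genes in cluster peaks covered 18 of the 20 kinds of tRNA product that RefSeq lists, with 4 each for tRNA-Asp, tRNA-Ser and tRNA-His.

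The tRNA clusters were higher in replicate 2 in 10 of 10 cases. The median log2 ratio of replicate 2 to replicate 1 over their sums was 0.60, from 0.14 to 0.70. Over all 85 clusters the median was 0.15, and per peak over the other shared distal peaks it was 0.27. Both of these are positive, so most clusters and most other shared distal peaks were higher in replicate 2 as well. Sums count each replicate 2 peak once, whereas a ratio per peak uses the highest overlapping replicate 2 peak, so sums and peaks are not like measures. Per peak, 44 of the 45 tRNA peaks in clusters were higher in replicate 2, with a median log2 ratio of 0.57. The 105 tRNA peaks outside the clusters had a median of 0.55, and 101 of them were higher in replicate 2. The 15 peaks of the tRNA clusters that held no tRNA gene had a median of 0.26. A median of 20.6% of the 32-base words in the tRNA peaks of clusters and 17.3% in those outside occurred elsewhere in the assembly too, and none in the 15 other peaks at the median. With 1 library on each side this difference has no replicate check, and the part of repeated words in it was not tested.

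Footprints were unevenly placed along the tRNA genes. Of the 45 tRNA peaks in clusters, 43 had a footprint in both libraries (95.6%, Wilson interval 85.2% to 98.8%), against 74.2% of the other shared distal peaks. This share rises with signal, as the bins below show, and tRNA peaks were not set beside other peaks of like signal. In the 10-base bin that began 50 bases after the first base of the gene, on average 67.1% of the 45 genes were covered by a replicate 1 footprint and 76.7% by one of replicate 2. A second stretch lay upstream, where the bin that began 20 bases before the gene was covered in 49.6% of genes in replicate 1 and 66.4% in replicate 2. Between them, in the bin that began 20 bases into the gene, coverage was 1.56% in each library. The letters of the B box, GTTCNANNC, occurred on the gene's own strand in 44 of the 45 genes, and the median first base of the match was base 53 of a median length of 73, counted from 1 at the gene's first base. The 107 tRNA genes in other shared distal peaks had 61.3% and 70.7% in the bin that began 50 bases in and 2.71% and 1.59% in the bin that began 20 bases in. Some words of the tRNA peaks were repeated in the assembly, as given above, and their part in where footprints were called was not tested.

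**Figure D1:**
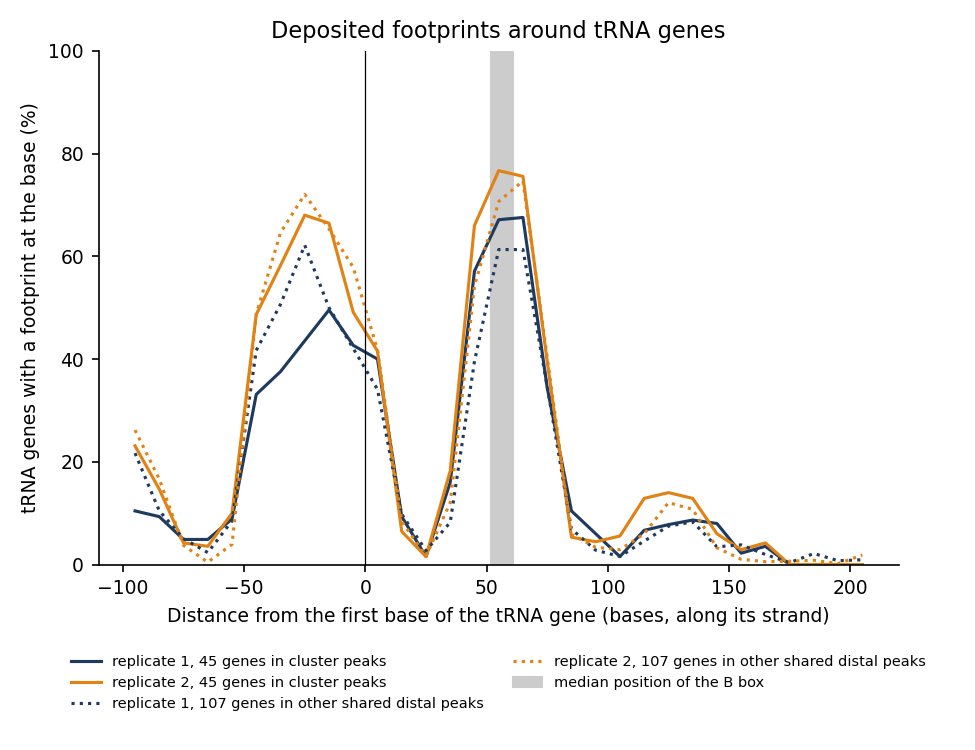
Share of tRNA genes with a deposited footprint over each position, as means of 10-base bins, against the distance from the gene's first base along its strand. Solid lines show the 45 genes in cluster peaks and dotted lines the 107 in other shared distal peaks, replicate 1 in dark blue and replicate 2 in orange. The grey band is the median position of the B box, and in all 4 lines coverage is high upstream of the gene and over that band and low between them.

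Starts of noncoding genes marked a further 19 clusters with 110 peaks, 42 of them at such a start. A peak was counted as at a noncoding start if its midpoint was within 500 bp of a transcript start of a GENCODE M21 gene that is not protein-coding, which held for 46 of the 471 cluster peaks (9.77%, Wilson interval 7.40% to 12.8%) and for 2.99% of the other shared distal peaks. Of these 46 peaks, 4 were in tRNA clusters. By kind, 23 of the 46 starts were of long intergenic noncoding RNAs (lincRNAs), 10 of processed transcripts and 9 of antisense RNAs. As background, many noncoding RNAs are transcribed from enhancers or share a promoter region with a neighbouring gene.

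Cluster 3 overlapped Frmd8, whose product stabilises iRhom proteins at the cell surface, and its antisense partner Frmd8os. Its 6 peaks summed to 14.2 in replicate 1 and 15.7 in replicate 2, and each had a footprint in both libraries. Of the 6, 3 were at a Frmd8os start, and the highest, whose sequence is shown above, lay in an intron of a noncoding gene at 5.08 and 4.22. Cluster 5, 3342 bp from Irf2bpl, which encodes a nuclear regulator of transcription, was at the start of the lincRNA Gm26698 and summed to 13.7 and 15.6. Its highest peak reached 6.53 and 7.10, and the other peaks lay between 0.945 and 1.41 in replicate 1.

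Cluster 9 was at the start of Zswim6, a gene needed for normal brain development that GENCODE M21 lists as a processed transcript. It summed to 11.8 in replicate 1 and 9.26 in replicate 2, and 1 peak gave 7.36 of the former and 5.77 of the latter. The nearest gene listed as protein-coding was Ndufaf2, 110849 bp away. Cluster 11 lay 4425 bp from Klf9, a Kruppel-like transcription factor gene that responds to glucocorticoids, at the lincRNA start of 2410080I02Rik. Its 7 peaks summed to 11.1 and 11.5 and ranged from 0.921 to 2.62 in replicate 1.

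Cluster 17 lay near Ghrhr, the receptor gene for growth hormone-releasing hormone, at the start of 6430584L05Rik, and summed to 8.94 in replicate 1 and 9.41 in replicate 2. Cluster 18 lay at starts of the noncoding RNA Lncpint and summed to 8.87 and 10.1, with Mkln1 as the nearest protein-coding gene at 176947 bp. Of the 19 clusters at noncoding starts, 17 were higher in replicate 2, as were most of all clusters. The median log2 ratio was 0.15, the same as over all clusters.

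Protein-coding genes were overlapped by 27 of the 85 clusters (31.8%, Wilson interval 22.8% to 42.3%), and 25 of these had neither a tRNA peak nor a noncoding start. Not every peak of such a cluster lies in the gene, and values given for this class cover all its peaks. The share of cluster peaks with a midpoint in an intron of a protein-coding gene was 23.4% (Wilson interval 19.8% to 27.4%), against 41.4% of the other shared distal peaks. For introns of noncoding genes the shares were 15.9% (12.9% to 19.5%) and 6.61%, and for intergenic sequence 53.5% (49.0% to 58.0%) and 46.5%. The overlapped genes had a median length of 103 kb, against 17.6 kb for all protein-coding genes. Long genes have more room for a cluster, and genes of like length were not compared.

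The cluster of highest summed signal overlapped Sfi1, a gene for a centrosome protein, on chromosome 11. Its 7 peaks summed to 23.7 in replicate 1 and 18.9 in replicate 2, and 4 of them measured above 2 in replicate 1. On average 43.8% of the 32-base words in its peaks occurred elsewhere in the assembly as well. Its highest peak, shown above, measured 8.16 and 6.04 and had 51.3% of its words repeated. In replicate 2 another peak was the highest, at 6.27, with 17.8% of its words repeated. The sources used here do not say how reads of such words were placed, and their part in this signal was not tested.

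Cluster 7 reached into Sncb, which encodes beta-synuclein, a protein of presynaptic terminals. Its 5 peaks summed to 12.1 in replicate 1 and 12.3 in replicate 2, and 4 of them were close in height, between 2.56 and 2.999 in replicate 1. Only the last peak along the chromosome lay in the gene, in an intron, and the others were intergenic. The peak shown above was the first, and its nearest protein-coding start was that of Gprin1, 2997 bp away. Cluster 16 was inside the predicted gene Gm44511, between the lectin-like receptor genes Klrb1c and Klrb1b, and summed to 9.56 and 10.5 with 27.1% of its words repeated. Cluster 80, in an intron of Apba2, an adaptor that binds the amyloid precursor protein, had the most peaks of all, 9, but summed to 2.62 and 3.32 only. Its peaks ranged from 0.139 to 0.788 in replicate 1.

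The last 31 clusters, with 167 peaks, were between protein-coding genes and had neither a tRNA gene nor a noncoding start. Cluster 2 had the highest sum among them, with 20.4 in replicate 1 and 18.5 in replicate 2. It lay in the interval between Nr1d1, which encodes the circadian repressor REV-ERB alpha, 6537 bp away, and Msl1, a subunit gene of a histone acetyltransferase complex, 6355 bp away. All 7 of its peaks had a footprint in both libraries and none of its words was repeated. Its peaks measured 0.951, 2.03, 6.58, 2.08, 2.01, 4.30 and 2.43 along the chromosome in replicate 1 and 0.652, 2.08, 5.45, 1.98, 1.21, 4.64 and 2.47 in replicate 2. The same peaks, the third and the sixth, were the highest in both libraries.

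Cluster 10, 48707 bp from Tmem161b, which encodes a membrane protein, summed to 11.5 and 12.3. A single peak gave 8.37 of this in replicate 1 and 7.99 in replicate 2, the highest of all cluster peaks in both libraries. Cluster 14, near Ythdf1, whose product reads N6-methyladenosine in RNA, spread 9.78 and 9.34 over 7 peaks. Cluster 19, near Atf7ip, a partner gene of the histone methyltransferase SETDB1, summed to 8.82 and 7.99. Clusters 39 and 70 lay 7098 bp apart on chromosome 10, both nearest to the zinc finger transcription factor gene Hivep2, and summed to 5.73 and 3.66 in replicate 1 and to 6.56 and 4.81 in replicate 2. No gene was named by more than these 2 clusters.

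**Figure D2:**
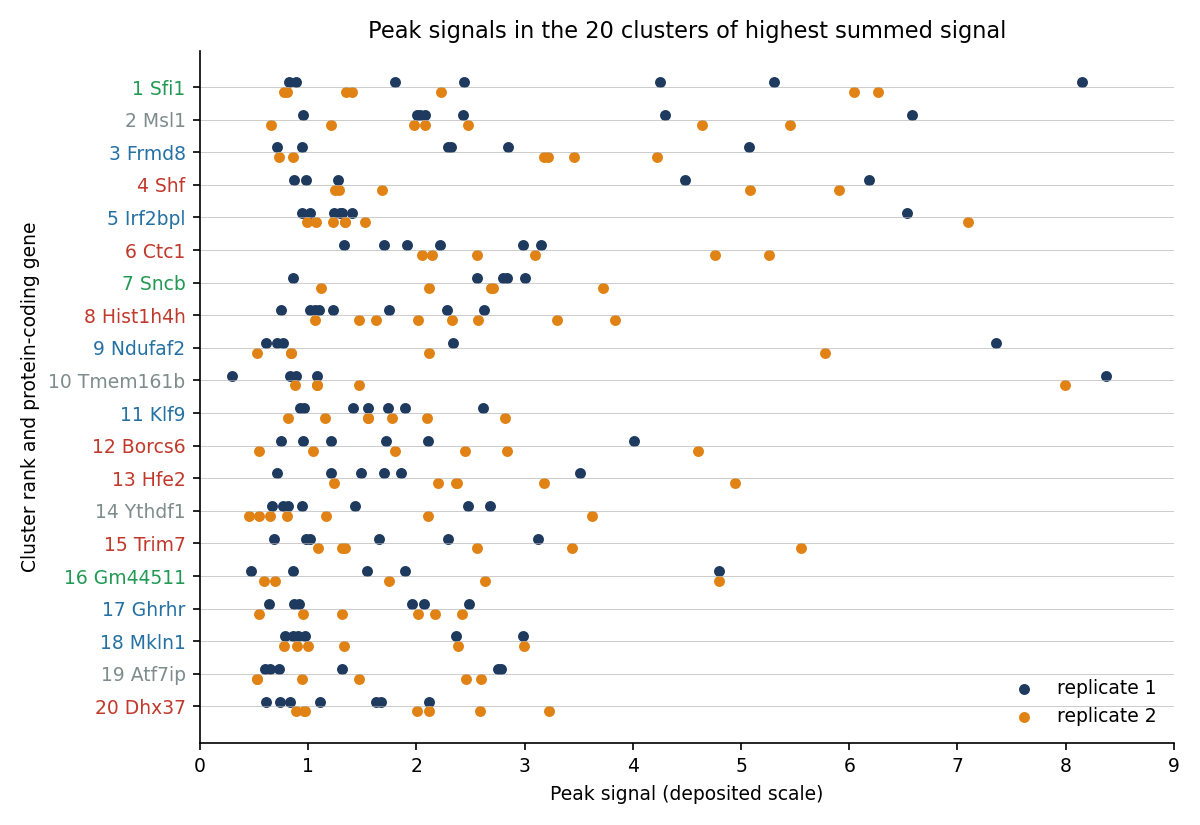
Signal of each peak (horizontal axis, deposited scale) in the 20 clusters of highest summed signal, replicate 1 in dark blue and the overlapping replicate 2 peaks in orange, with the cluster's rank and its overlapped or nearest protein-coding gene. Label colours mark clusters with a tRNA peak (red), at a noncoding start (blue), overlapping a protein-coding gene (green) and between genes (grey). Clusters 9 and 10 each hold 1 peak far above the rest, whereas the peaks of clusters 6 and 8 are spread more evenly.

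In size the clusters were short. Their median span was 5037 bp, from 1537 to 9473 bp, and together they covered 0.431 Mb. Of the 85, 57 had 5 peaks, 14 had 6, 11 had 7, 2 had 8 and 1 had 9. Besides clusters 80 and 8, the one with 8 peaks was cluster 35 at the noncoding gene Gm40841, which summed to 6.08 and 6.14. Peaks filled a median of 23.98% of a cluster's span. The median gap between neighbouring peaks that did not overlap was 560 bp, and 17 of 386 neighbouring pairs overlapped each other, since the deposited lists hold some nested peaks.

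The number of clusters depended on the lists and on both libraries. It was 11 with the authors' stricter lists, which met 10 of the 85, 411 from replicate 2 alone and 363 from replicate 1 alone, and 58 when starts of every gene type were barred. Just outside the rule, 214 stitched regions had 4 peaks, with a median span of 3690 bp and a median sum of 3.71, against 4812 bp and 5.14 for the 57 clusters with 5 peaks. The widest gap inside a cluster was 2960 bp and the shortest distance from a cluster to the next shared distal peak was 3040 bp. The cluster peak closest to a protein-coding start was 2047 bp away. Clusters were found on 18 of the 19 chromosomes and none on chromosome 4, which had 3459 shared distal peaks. Chromosomes 2 and 13 had 9 each.

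The libraries, whose shared peaks define the clusters, ranked them much alike. Sums ranged from 1.98 to 23.7 in replicate 1 and from 1.42 to 19.9 in replicate 2, with a Pearson correlation of log2 sums of 0.94 and a Spearman correlation of 0.94 over the 85 clusters, which share the libraries and the selection. Of the 20 highest in replicate 1, 17 were among the 20 highest in replicate 2. The 3 that replaced clusters 9, 14 and 19 were clusters 21, 22 and 38, of which the latter 2 held tRNA genes. Within a cluster, 1 peak gave a median of 32.05% of the replicate 1 sum, and in 7 clusters it gave more than 50%. Sites between the peaks were partly open as well. A median of 39.1% of a cluster's bases in replicate 1 and 38.4% in replicate 2 had a deposited false discovery rate below 0.05, and outside the shared peaks 14.8% and 21.4% did.

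**Figure D3:**
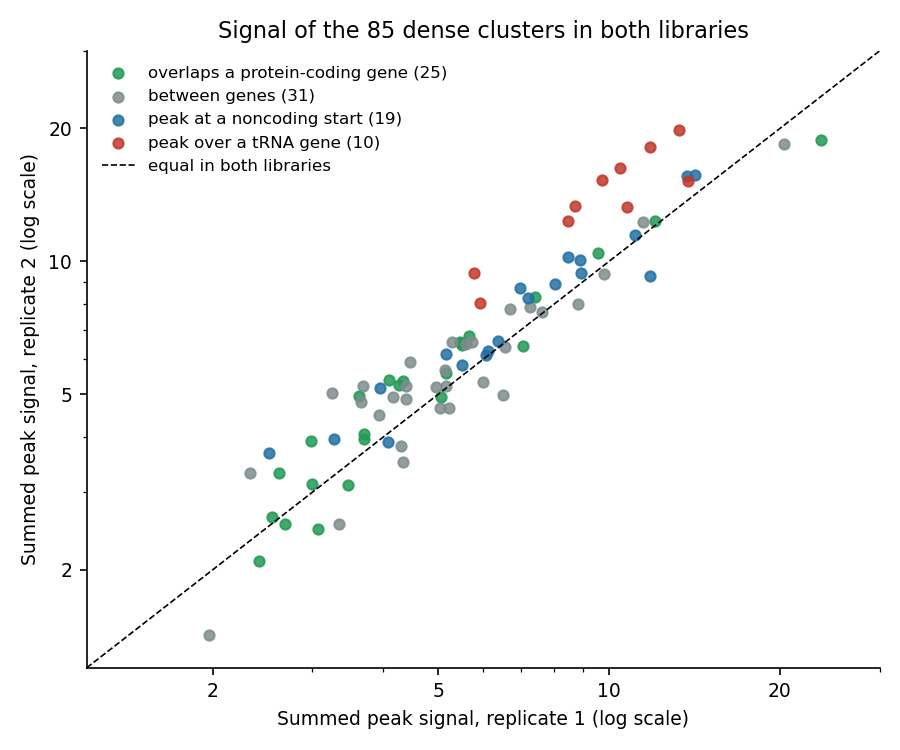
Summed peak signal of each of the 85 clusters in replicate 1 (horizontal) and replicate 2 (vertical), both on log scales, coloured by annotation; the dashed line marks equal sums. The 10 clusters with a tRNA peak lie above the line, between 5.79 and 13.8 in replicate 1 and between 8.05 and 19.9 in replicate 2, and the clusters that overlap a protein-coding gene lie on both sides of it.

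Cluster peaks were higher than other distal peaks, with a median signal of 0.891 and 1.06 in replicates 1 and 2 against 0.600 and 0.747. The share with a footprint in both libraries was nonetheless the same, 74.3% (350 of 471, Wilson interval 70.2% to 78.0%) against 74.2%. Footprints come from the same cuts as the peaks, so this share depends on the signal. All shared distal peaks were therefore split into 5 bins of equal size by replicate 1 signal. In bin 2 the share was 42.4% in cluster peaks (Wilson interval 30.6% to 55.1%, 59 peaks) and 64.9% in other peaks. In bin 3 it was 60.9% (48.7% to 71.9%, 64 peaks) against 82.0%, and in bin 4 it was 78.5% (70.4% to 84.9%, 121 peaks) against 92.8%. The intervals of cluster peaks reached the other peaks' share in the lowest bin, at 30% against 34.0%, and not in the highest, at 95.7% (91.8% to 97.8%) against 98.0%. Between the classes, the share was 88.3% in tRNA clusters, 74.9% in clusters between genes, 70.9% in noncoding-start clusters and 70.1% in clusters that overlap a protein-coding gene.

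**Figure D4:**
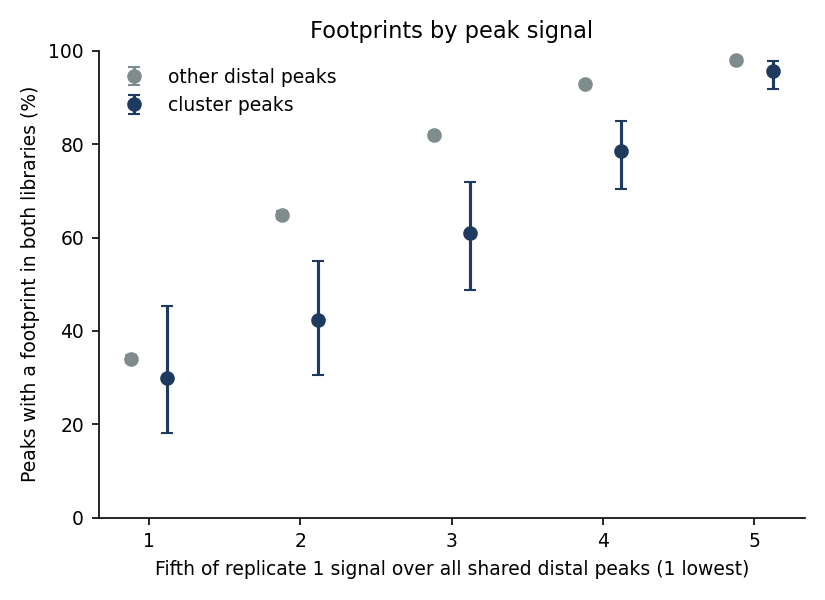
Share of shared distal peaks with a deposited footprint in both libraries, by 5 equal bins of replicate 1 signal, in cluster peaks (dark blue) and all other distal peaks (grey), with 95% Wilson intervals that cover counting error only. In bins 2, 3 and 4 the cluster peaks lie below the other peaks, at 42.4%, 60.9% and 78.5%.

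The sequence of the cluster peaks was not used to choose them. Their median GC content was 52.5%, against 50% in other distal peaks, and the median ratio of observed to expected CpG was 0.370 against 0.243. That ratio was 0.835 in the 45 tRNA peaks, 0.421 in the noncoding-start clusters, 0.351 in clusters between genes and 0.253 in those that overlap a protein-coding gene. Peaks with more than 50% of their 32-base words repeated made up 3.18% of cluster peaks (15 of 471, Wilson interval 1.94% to 5.19%) and 0.833% of the others. Besides clusters 1 and 16, only cluster 32, near Akap1, had a mean above 25% of words repeated, at 65.7%, with sums of 6.51 in replicate 1 and 4.99 in replicate 2.

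In all, 30 motifs were searched on both strands in the 200 bp around each peak's midpoint, and the share in cluster peaks was set beside that in the other shared distal peaks. Matches are letters and not proof of binding. The E-box CAGATG, bound by NEUROD and OLIG factors of neurons and glia, was found in 22.7% of cluster peaks (Wilson interval 19.2% to 26.7%) and 33.4% of the others. The NFI site TTGGCA, of factors that act in neural stem cells, neurons and astrocytes, was in 13.0% (10.2% to 16.3%) against 23.2%. The E-box CATATG was in 3.18% (1.94% to 5.19%) against 6.83%. Some motifs rich in G had higher shares in cluster peaks. The Sp and KLF site GGGGCGGGG was in 3.61% (2.27% to 5.70%) against 0.899%, and the shorter Egr and KLF site GTGGGNG in 28.2% (24.4% to 32.5%) against 23.4%. The reversed letters of the last, a control for base composition, were in 23.1% against 18.5%. The letters GGGGCGGGG read the same when reversed and have no such control. The shortened CREB site TGACGNNA was in 4.88% (3.28% to 7.22%) against 2.55%. The full site TGACGTCA was in 0.637% (0.217% to 1.86%) against 0.397%, a share inside the interval. The CTCF core was in 4.46% (2.93% to 6.72%) against 6.44%.

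By class, CAGATG was in 28.7% of peaks in clusters between genes and 29.9% of those in clusters that overlap a protein-coding gene, but in 11.8% in noncoding-start clusters and 10.0% in tRNA clusters. The NFI site ranged less, from 10.0% in tRNA clusters to 15.7% in clusters that overlap a protein-coding gene. With the tRNA clusters left out, CAGATG was in 24.6% and TTGGCA in 13.4% of the remaining cluster peaks. The letters GTTCNANNC of the tRNA B box, added to the list after the tRNA genes had been seen, were in 12.1% of cluster peaks (9.46% to 15.4%) against 6.44% of the others. They were in 35 of the 45 tRNA peaks, and in 5.11% of cluster peaks with the tRNA clusters left out. In the 63 peaks of the 11 clusters made from the stricter lists, CAGATG was in 11.1% and the shortened CREB site in 3.17%. The CTCF core was in 1.59% of them and the B box in 20.6%.

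**Figure D5:**
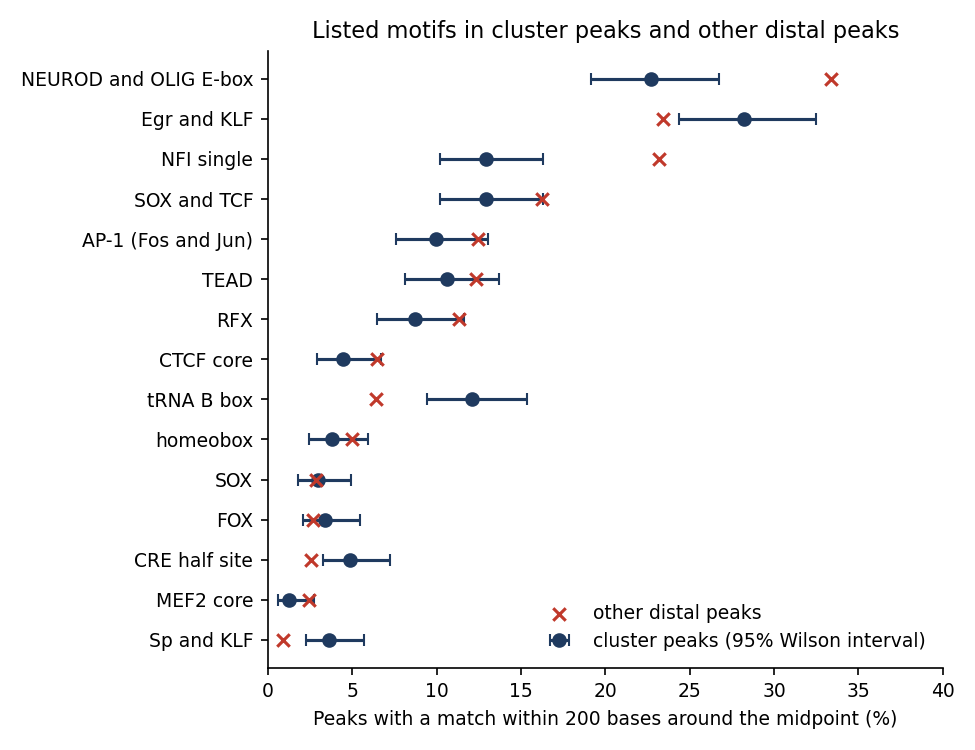
Share of cluster peaks (dark blue, with 95% Wilson intervals for counting error) and of other shared distal peaks (red crosses) with a match of each motif within 200 bp around the midpoint, for motifs found in at least 2% of either. The E-boxes CATATG and CAGCTG are not drawn. For the NEUROD and OLIG E-box (CAGATG) and the NFI motif the crosses lie above the intervals of the cluster peaks, and for the Sp and KLF motif and the tRNA B box below them.

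The clusters were also read by the genes they name, against lists of cell types and functions of the hippocampus and of liver, skeletal muscle and Hox genes. Clusters named 86 protein-coding genes, 0.414% of the 20780 on these chromosomes. Of 18 gene lists, 6 had a member with a cluster and 12 had none, among them the lists for dentate granule cells, astrocytes, oligodendrocytes and activity-induced genes. The CA pyramidal list had 1 of 22, Fibcd1, a chitin-binding receptor gene, with 5.48 in replicate 1 and 6.52 in replicate 2. The interneuron list had 1 of 22, the homeobox gene Dlx2, whose cluster lay 78711 bp away and summed to 3.34 and 2.54. Dlx2 itself was not open in both libraries by the measure given above.

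The list of transcription factors of cortex and hippocampus had 3 of 41 members: Klf9, described above, and the SoxC genes Sox4 and Sox11, which act in young neurons. The Sox4 cluster, 60407 bp away at the start of the lincRNA A330102I10Rik, summed to 2.51 and 3.68. The Sox11 cluster, 269065 bp away, was the lowest of all at 1.98 and 1.42. The adhesion list had 1 of 31, Ncam1, a cell adhesion gene of neurons, with 4.27 and 5.26 inside the gene. The ion channel list had 1 of 27, Cacna1e, which encodes an R-type calcium channel, with 5.47 and 6.56. The signalling list had 1 of 29, the phosphodiesterase gene Pde2a. Its cluster lay 24837 bp away, at the start of the lincRNA Gm35363, and summed to 3.95 and 5.16. These 6 lists are those with any member named, and the remaining lists had none. Their shares were 3.23% to 7.32%, from 1 to 3 genes each. In lists this short 1 gene already exceeds the 0.414% of all genes, so no enrichment can be read from them. The counts changed when 1 library was used. Clusters then named 397 genes from replicate 2 alone and 378 from replicate 1 alone, against 86 from both. The 0.414% is therefore not the base for the counts from 1 library. From replicate 2 alone the transcription factor list had 14 members with a cluster, the adhesion list 5, the astrocyte and pan-neuronal lists 4 each and the CA pyramidal, signalling and axon guidance lists 3 each. The ion channel list then had 2, and the activity-induced, microglia and oligodendrocyte precursor lists 1 each. From replicate 1 alone the transcription factor list had 8, the adhesion list 5, the signalling list 4, the oligodendrocyte, CA pyramidal, pan-neuronal and axon guidance lists 2 each and the astrocyte and activity-induced lists 1 each. With the stricter lists the transcription factor list kept 1 member and the other 5 had none, and naming a cluster by its nearest start instead left the CA pyramidal list with 0 and gave the pan-neuronal list 1.

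The gene with the nearest protein-coding start was open for 67 of the 85 clusters (78.8%, Wilson interval 68.99% to 86.2%), against 60.4% of all protein-coding genes. The share for genes nearest to other shared distal peaks is not given, so nothing particular to dense clusters can be read from this. Any start of that gene counted, so the nearest start itself need not be open. By class this held for 27 of 31 clusters between genes, 20 of 25 that overlap a protein-coding gene, 13 of 19 at noncoding starts and 7 of 10 with tRNA genes. The distance from a cluster's midpoint to the nearest protein-coding start had a median of 29124 bp overall and 9070 bp for the tRNA clusters. Which gene, if any, a cluster acts on was not measured.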

How the data were processed

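DNase-seq of 2 libraries was analysed. Per the file headers and the labels, the deposited peak lists are given on mm10, with a larger and a stricter list per library, a signal value per peak in column 7, false discovery rates of cutting per base interval, on the scale of a p-value and listed below 0.05, and footprints at a threshold of 0.01. Each library's files were made from its own alignments, per the deposited notes. The sources used here do not give the unit of that signal, the aligner, the caller or the footprint tool. From these deposited files, shared distal peaks (overlap of at least 1 bp) were stitched and ranked, and compared with GENCODE M21 genes, RefSeq GRCm38.p6 sequence and tRNA genes, and 32-base words counted over the assembly. Members and lists were chosen with earlier results of these data known, and classes, word counts and the B box after seeing the values. The text names the 20 clusters of highest sum, the 5 with the most peaks and up to 4 genes per list. With 2 libraries of 1 group no test was run: shares have 95% Wilson intervals. Stitching, overlaps and word counts were tested on simulated data. Python 3.11.15, pandas 2.3.3, numpy 2.4.6, pysam 0.24.0 and numba 0.67.0 were used. Alternatives changed the gap, the minimum number of peaks, the distance from starts, the lists, the overlap and the library.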

Additional observations from a re-analysis of the deposited data

How the results depend on the processing

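The cause of the changes below was not tested. Against 85 clusters, 86 genes, a median span of 5037 bp, 31.8% overlapping a protein-coding gene and 74.3% of peaks with a footprint in both libraries, a gap of 2 kb gave 47 clusters, 48 genes, 3880 bp and 68.6% with footprints. A gap of 5 kb gave 173 clusters, 176 genes and 7720 bp, and the widest gap tried gave 777 clusters, 754 genes, 21240 bp, 53.4% overlapping a gene and 80.5% with footprints. A minimum of 4 peaks gave 299 clusters, 296 genes and 4060 bp, and a minimum of 6 gave 28 clusters, 28 genes and 17.9% overlapping a gene. A distance of more than 1 kb from starts gave 45.0% overlapping a gene and 69.8% with footprints. The stricter lists gave 11 clusters, 11 genes, 4060 bp and 18.2% overlapping a gene. An overlap of 0.5 of each peak gave 30 clusters, 29 genes, 5455 bp and 81.9% with footprints. Joining peaks under 150 bp apart gave 46 clusters, 47 genes and 5455 bp. Leaving out a library gave 363 to 411 clusters, 378 to 397 genes, spans of 4518 to 4938 bp, 42.8% to 51.8% overlapping a gene and 28.0% to 43.8% with footprints. Of the 20 clusters of highest sum, 13 were kept when ranked by number of peaks and 10 by signal per kb. The number of clusters stayed within 1.5 times of 85 under the other 9 settings, 4 of them chosen after seeing the data, which gave 58 to 109. With tRNA genes barred as starts it was 75, without peaks of repeated words 80, and with overlapping or touching peaks counted once 72. A similar count need not mean the same clusters. Stitching replicate 2 peaks instead gave 87 clusters, which met 72 of the 85 and 19 of the 20 of highest sum. Of 90 alternative motif shares 70 lay within the interval of the main share. The stricter lists gave 11.1% for CAGATG, 17.5% for TTGGCA, 22.2% for GTGGGNG and 3.17% for the shortened CREB site. They gave 1.59% for the CTCF core and 20.6% for the B box. Whole peaks gave 33.3% for GTGGGNG and 17.0% for TTGGCA. Of 72 alternative gene list counts 28 changed. No paired analysis was possible because both libraries belong to 1 group. The precision is limited by the 2 libraries and by the unknown read depth.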
